A study of Mus musculus with 6 samples.

Results

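The cytosolic chaperonin, called CCT or TRiC, was followed through the mRNAs of its 8 subunits, Tcp1, Cct2, Cct3, Cct4, Cct5, Cct6a, Cct7 and Cct8, in RAW264.7 cells, an established mouse macrophage line. The subunits were taken by gene symbol, and all 8 were found among the 49492 genes of the deposited count table. The complex was chosen by the fold change of Cct6a in these same 6 libraries, where it was already known to be low after Ep300 siRNA, and the question was whether Cct6a was low alone among its partners. Comparisons of these 8 genes between the groups are therefore given as descriptions, with intervals and no p-value, and calls among them are counted only beside the share of all genes called. All 8 passed the filter on low counts, as did 15741 genes in all.

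Cells received either Ep300 siRNA or a control siRNA, each at 50 nM, and were collected 48 h after transfection with a riboFECT CP kit. The product of Ep300 is p300, which acetylates lysines of histones and other proteins and is recruited by many transcription factors. Each group held 3 stranded mRNA libraries, and the labels name no difference between the groups beyond the siRNA (control cells are labelled WT). Neither the siRNA sequences nor the origin of the 3 libraries from separate cultures is stated, so the spread between libraries may be technical.

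CCT is a barrel of stacked rings in which each subunit holds a fixed place. Newly made actin and tubulin enter its cavity, fold behind a lid that closes as ATP is hydrolysed, and are released, and many proteins of the WD40 class are folded there as well. Every ring takes one copy of each subunit. Cct6a has a paralog, Cct6b, found mainly in testis. Prefoldin hands nascent chains to CCT, phosducin-like proteins assist it, and the Hsp70 and Hsp90 chaperones act before or beside it. In macrophages, actin and tubulin serve migration, phagocytosis and division.

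Depth ranged from 29993567 to 45377510 counts per library, and a subunit held between 2464 and 26257 counts in any library. Ep300 itself was at 51.1, 59.0 and 54.9 CPM (counts relative to the TMM-scaled library size) after Ep300 siRNA and at 106.8, 115.3 and 118.4 CPM after control siRNA. All 10 macrophage markers examined were detected, summing to 11264 to 12217 CPM after Ep300 siRNA and 9935 to 11616 CPM after control siRNA. All 16 markers of other cell types were at most 1 CPM in every library, and Ncr1, Epcam and Alb were at 0.

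Cct6a is the zeta subunit, and its gene lies on GRCm38 chromosome 5, from 129786998 to 129846371 on the plus strand. Its mRNA was at 333, 341 and 329 CPM in the 3 control libraries and at 129, 145 and 159.5 CPM in the 3 Ep300 siRNA libraries. Every Ep300 siRNA library lay below every control library, the lowest control being 2.06 times the highest Ep300 siRNA value. The means were 144 ± 15.5 CPM after Ep300 siRNA and 334 ± 5.99 CPM after control siRNA (SD, n = 3), a level 0.432 of control (95% interval 0.384 to 0.486). On the log2 scale the difference was −1.21 ± 0.08 (SE). Spread was wider after Ep300 siRNA, with a coefficient of variation of 10.7% against 1.79% in the controls, and Ep300 siRNA replicate 1 was the lowest library. In bulk RNA, fewer cells with the transcript and less transcript per cell cannot be told apart.

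**Figure D1:**
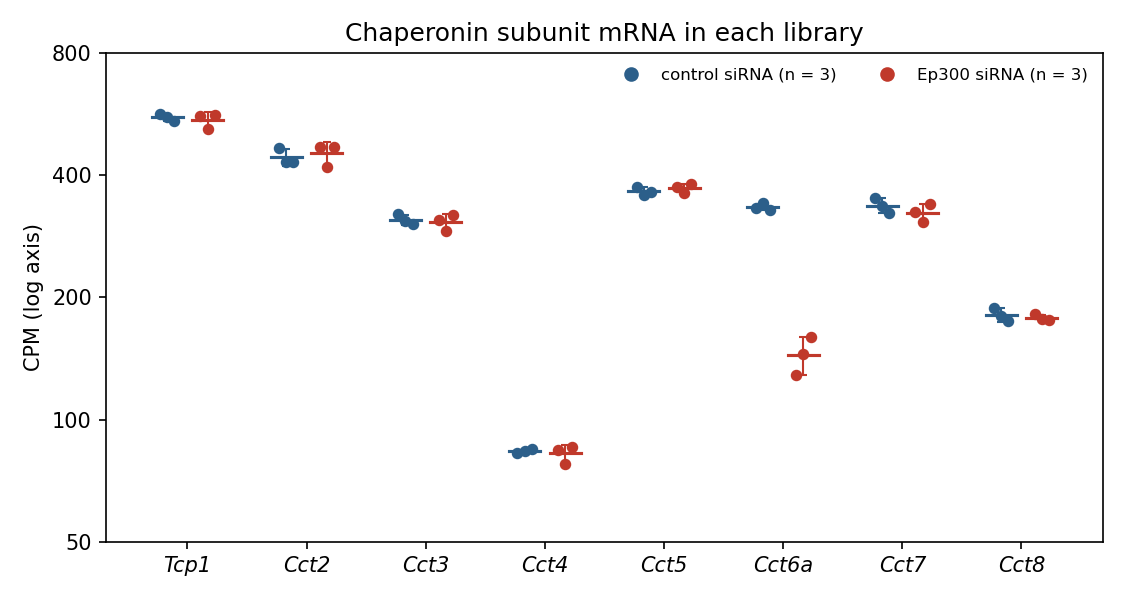
CPM of each chaperonin subunit (log axis) in the 3 control siRNA and 3 Ep300 siRNA libraries; points are libraries, horizontal lines means and error bars SD. Cct6a is at 129 to 159.5 CPM after Ep300 siRNA and 329 to 341 CPM in the controls, while the groups overlap for the other 7; heights of different genes are not scaled for length.

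Around the ring, Cct6a sits between Cct3 and Cct8. Cct3, the gamma subunit, was at 309, 292 and 319 CPM after Ep300 siRNA and 321, 308 and 303 CPM after control siRNA. Cct8, the theta subunit, was at 182, 177 and 176 CPM after Ep300 siRNA and 189, 179.7 and 175 CPM after control siRNA. For both ring neighbours the groups overlapped, and the log2 fold changes were −0.02 ± 0.06 and −0.03 ± 0.06 (SE).

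Farther round the ring, Cct7, the eta subunit, had 324, 307 and 339 CPM after Ep300 siRNA and 351, 336 and 323 CPM after control siRNA. Its log2 fold change of −0.06 ± 0.06 (SE) was the lowest of the 7. Cct5, the epsilon subunit, had 374, 362 and 381 CPM against 375, 357 and 364 CPM. Cct2, the beta subunit, had 469, 419 and 470.4 CPM against 468, 430.0 and 430.2 CPM, and its log2 fold change of 0.03 ± 0.07 (SE) was the highest. In both genes the libraries of the groups were interleaved.

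Cct4, the delta subunit, was the least counted, at 84.1, 77.9 and 85.9 CPM after Ep300 siRNA and 83.0, 83.8 and 84.6 CPM after control siRNA. Tcp1, the alpha subunit, was the most counted, at 560.1, 519 and 564 CPM after Ep300 siRNA and 567, 555 and 545 CPM after control siRNA. Ep300 siRNA replicate 2 was the lowest of the 6 libraries for Tcp1, Cct2, Cct3, Cct4 and Cct7.

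Ratios of Ep300 siRNA to control siRNA for the 7 subunits other than Cct6a ran from 0.96 to 1.02. Their 95% intervals together spanned log2 fold changes of −0.20 to 0.19, that is, ratios of 0.872 to 1.14. The level of Cct6a relative to control lay outside that span. With 3 libraries a group, a shift of another subunit within its own interval is not excluded. The median log2 fold change of the 7 was −0.02, beside −0.0038 for all genes tested. Of the 7, none was called by edgeR (adjusted p under 0.05), where 6.78% of all genes tested were called, 2.76% higher and 4.02% lower. None had an unadjusted p under 0.05, where 22.2% of all genes tested did. None was called by DESeq2, where 1436 of 12384 genes were, or by limma-voom, where 1043 of 15741 were. The groups overlapped for all 7, whereas they did not overlap for 27.5% of all genes tested, 14.4% with the Ep300 siRNA libraries lower. Cct6a was among the 51 genes (0.324% of those tested) that were called and at least 2-fold lower, and 0.451% of genes tested had a log2 fold change at or below its own. Among the 10340 genes with a mean of at least 5 CPM, 5 were as low, itself included. Since Cct6a was chosen by this contrast, nothing is read from these shares for it.

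**Figure D2:**
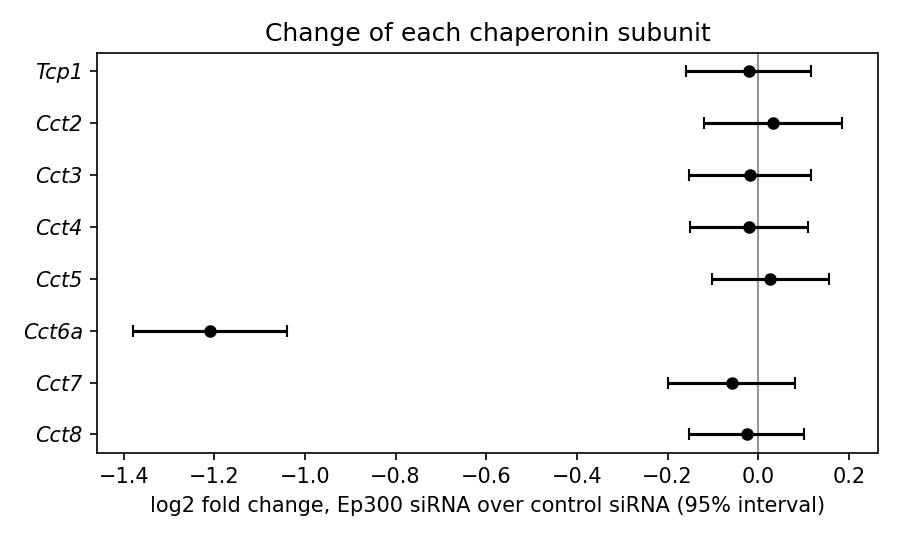
Log2 fold change of each subunit, Ep300 siRNA over control siRNA, as points with 95% intervals from edgeR (3 libraries a group). Cct6a is at −1.21 and the other 7 lie between −0.06 and 0.03, with intervals that include 0.

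A ratio between subunits of the same library does not depend on how libraries were scaled. The log2 CPM of Cct6a minus the mean log2 CPM of the other 7 was 0.20, 0.29 and 0.25 in control siRNA replicates 1, 2 and 3. It was −1.145, −0.88 and −0.85 in Ep300 siRNA replicates 1, 2 and 3. The groups were thus 1.20 apart on the log2 scale (0.24 ± 0.05 and −0.96 ± 0.16, SD, n = 3), and Ep300 siRNA replicate 1 stood below the other libraries of its group. Taken against each partner singly, the difference ran from −1.16 (to Cct7) to −1.25 (to Cct2). The same ratio taken for each of the other 7 subunits, against the 6 that remain without Cct6a, differed between the groups by −0.05 (Cct7) to 0.05 (Cct2 and Cct5).

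**Figure D3:**
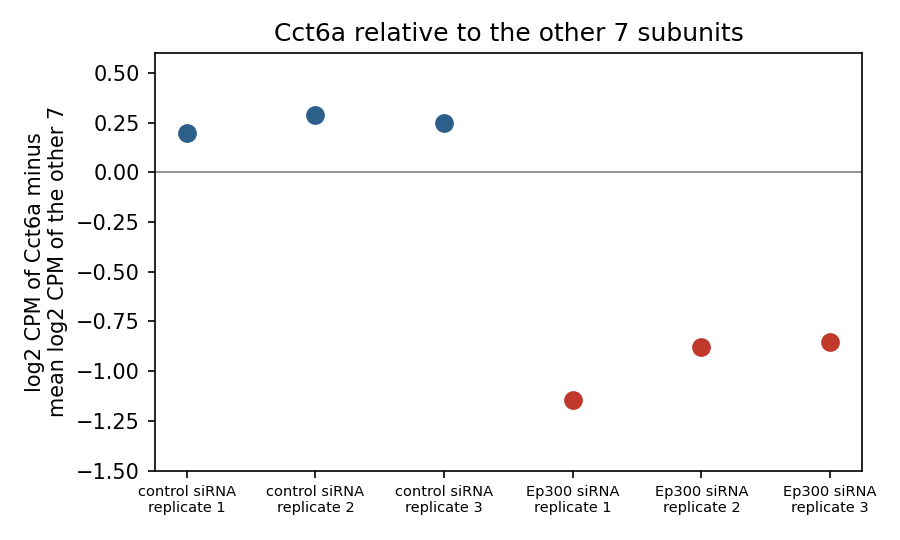
Log2 CPM of Cct6a minus the mean log2 CPM of the other 7 subunits, 1 point per library. The 3 control siRNA libraries are at 0.20 to 0.29 and the 3 Ep300 siRNA libraries at −1.145 to −0.85.

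Levels of different genes can be compared only per length, so CPM was divided by the length of all annotated exons of each gene in kilobases. In the controls Cct2 was highest (173 ± 8.54 CPM per kilobase, SD, n = 3), followed by Cct5 (132 ± 3.21), Tcp1 (110.5 ± 2.24), Cct6a (92.3 ± 1.65) and Cct8 (58.7 ± 2.20). Cct7 (49.7 ± 2.06) and Cct3 (48.8 ± 1.43) overlapped each other, and Cct4 was lowest (19.9 ± 0.183). Neighbours in this order other than Cct7 and Cct3 did not overlap between control libraries. After Ep300 siRNA, Cct6a had rank 7 of 8, against rank 4 in the controls, at 39.9 ± 4.27 CPM per kilobase, above Cct4. Its share of the summed per-kilobase level of the 8 subunits was 13.5% ± 0.435 in the controls and 6.30% ± 0.657 after Ep300 siRNA. The order depended on the length used. The alternative length was that of the main transcript, the longest one labelled protein-coding. Cct6a has 0 so labelled, and its longest transcript not labelled retained intron or nonsense-mediated decay was taken, so its length is of another kind. With this length in place of all exons, Tcp1 and Cct2 overlapped at the top of the controls. Cct3 then had rank 4 in the controls (157 CPM per kilobase), Cct7 rank 5 (138), Cct6a rank 6 (136) and Cct8 rank 7 (75.7). By this length Cct6a overlapped Cct7 in the controls and had rank 7 after Ep300 siRNA, and the shares of Cct6a were 11.4% and 5.30%. In raw counts, Cct6a made up 12.8% ± 0.386 of the counts of the 8 subunits in the controls and 6.0% ± 0.617 after Ep300 siRNA. The 8 subunits together took 0.264% ± 0.00889 of all counts in the controls and 0.238% ± 0.0108 after Ep300 siRNA, and the 7 without Cct6a took 0.23% ± 0.00875 and 0.224% ± 0.0101.

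Some reads of a subunit may also match another gene. The 50-base windows of each subunit's main transcript were searched for in transcripts of other genes, read on either strand. Of these windows, 16.8% for Cct6a were found in Psph, 22.2% for Tcp1 in Acat3, Acat2 or Tcp1-ps1, and 8.28% for Cct7 in Pradc1 or 2 predicted genes. The share was 6.10% for Cct8 (Usp16), 2.13% for Cct3 (Cct3-ps1 and a predicted gene) and 0.657% for Cct4 (a predicted gene), and no window of Cct2 or Cct5 was shared. Psph, Acat3, Pradc1 and Usp16 each overlap their subunit's gene on the opposite strand, so their shared windows need not be related sequence. How the counting treated strand and multiply mapped reads is not stated, and reads of these stretches cannot be assigned with certainty. In GENCODE M21 the 7 transcripts of Cct6a carry no protein-coding label, unlike those of its partners.

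Psph, which encodes the last enzyme of serine synthesis, is transcribed away from Cct6a on the opposite strand, and the GENCODE genes overlap by 452 bases. In RefSeq the start sites are at 129787253 for Psph and 129787356 for Cct6a, with 102 bases between them. Psph was at 45.5, 39.5 and 44.9 CPM after Ep300 siRNA and at 54.2, 53.2 and 50.1 CPM after control siRNA, without overlap. It fell to 0.824 of control (log2 fold change −0.28 ± 0.07, SE, edgeR adjusted p = 0.036), a smaller shift than that of Cct6a. That call was lost on leaving out replicate 2 or 3 of the Ep300 siRNA group or any 1 of the 3 control libraries (edgeR adjusted p from 0.0583 to 0.136). Reads of the stretch shared with Cct6a cannot be assigned with certainty, and their part in the Psph value was not tested. Downstream of Cct6a, Sumf2, which encodes a paralog of the sulfatase-modifying enzyme, was at 0.16 ± 0.14 (SE, edgeR adjusted p = 0.584). On the other side of Psph, Nipsnap2, listed in the table under its older symbol Gbas, was at 0.12 ± 0.09 (SE, edgeR adjusted p = 0.484). Of 17 protein-coding genes that overlap or flank the 8 subunits and passed the filter, Psph fell and Glmp, downstream of Cct3, rose (log2 fold change 0.31, edgeR adjusted p = 0.0224; Glmp is named after its value was seen), beside 6.78% of all genes called. The snoRNA genes inside Cct6a, Snora15 and Gm23245, had at most 10 counts in any library.

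Promoter sequences were taken from RefSeq (GRCm38.p6), from 250 bases before to 50 bases after each start site, and 7 of the 8 subunits had at least 1 entry (9 windows). The promoter of Cct6a, which also covers the start of Psph, and that of Cct3, its ring neighbour, are shown because the first gene was lower and the second was not called. Capitals mark the letters CCAAT, the CCAAT box bound by NF-Y, and TGACG, the core of the cyclic AMP response element bound by CREB, a factor that recruits p300, each on either strand (ATTGG and CGTCA).
Cct6a (chr5:129787106-129787405, plus strand): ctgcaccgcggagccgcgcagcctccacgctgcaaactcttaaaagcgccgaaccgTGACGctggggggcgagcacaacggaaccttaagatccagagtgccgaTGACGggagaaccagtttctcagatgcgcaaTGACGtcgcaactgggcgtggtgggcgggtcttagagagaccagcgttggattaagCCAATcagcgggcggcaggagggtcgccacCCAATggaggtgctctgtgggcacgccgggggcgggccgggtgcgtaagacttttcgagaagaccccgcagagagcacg
Cct3 (chr3:88296885-88297184, plus strand): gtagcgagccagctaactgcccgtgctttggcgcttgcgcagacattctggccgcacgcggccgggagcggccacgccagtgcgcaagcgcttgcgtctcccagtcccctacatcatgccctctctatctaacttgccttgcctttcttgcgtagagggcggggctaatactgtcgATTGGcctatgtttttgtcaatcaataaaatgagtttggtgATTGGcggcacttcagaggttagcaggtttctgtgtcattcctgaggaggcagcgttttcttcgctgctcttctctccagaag
The Cct6a window held TGACG at 3 places and CCAAT at 2. No window of the other 6 subunits held TGACG, which 20.8% of all 32851 promoter windows of this length held. At 3 or more places it was found in 1.03% of all windows. CCAAT was found in 4 of the 7 subunits with an entry (Tcp1, Cct3, Cct6a and Cct7) and in 37.4% of all windows. GGGCGG, the GC box bound by Sp1, was in at least 1 window of each of the 7 and in 35.7% of all windows. The Cct5 window at chr15:31601490-31601789 did not hold it. GAANNTTC, the core of the heat shock element, was in a Cct2 window and in 7.86% of all, and CACGTG, the E-box bound by MYC, was in none of the 7 and in 7.15% of all. The letters were chosen after the Cct6a promoter had been read, and a match is a description of the sequence, not a bound site.

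Because Ep300 mRNA was the target of the siRNA, each subunit's main transcript was also compared with the longest Ep300 mRNA for its best ungapped match over 19 bases. Cct6a and Cct3 matched 17 of 19 bases, Cct7 matched 18, and the other 5 matched 16. Among 3123 genes with mRNAs of 1800 to under 2800 bases, 33.4% matched at least 17 bases and 4.16% at least 18. The best matches of Cct6a, the subunit that was lower, and of Cct7, at a log2 fold change of −0.06, are shown with the mismatched bases in capitals.
Ep300 at bases 9258 to 9276: aaaattttTtGttattttt
Cct6a at bases 2040 to 2058: aaaattttAtTttattttt
Ep300 at bases 4124 to 4142: gaccattcctgAgaagcag
Cct7 at bases 1883 to 1901: gaccattcctgGgaagcag
The siRNA sequences are not stated, so these stretches need not be siRNA sites, and shorter matches were not examined. The part of shared sequence in the level of any subunit was not tested.

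The profile across the 6 libraries was set beside those of 9174 genes with a mean of at least 5 CPM, leaving out symbols of predicted genes and pseudogenes, by the root mean square difference of log2 CPM centred on the control mean. The 5 genes most like Cct6a were Ptgs2os2, a long noncoding RNA near Ptgs2 (difference 0.11), Clec4a2, a C-type lectin receptor (0.13), Strap, a WD40 protein of the SMN complex (0.14), Mmp12, the macrophage elastase (0.15), and Ep300 itself (0.15). Values were centred on the control mean, so a near gene had to share the group difference by which Cct6a was chosen. The log2 fold changes of the 5 ran from −1.38 (Mmp12) to −1.04 (Ep300), and no further likeness is read from the list. Ptgs2os2 reached the 5 CPM mean through the controls (8.01 CPM, against 3.48 CPM after Ep300 siRNA). Strap had 64.0, 56.2 and 74.1 CPM after Ep300 siRNA and 166, 163 and 163 CPM after control siRNA. Its lowest library was Ep300 siRNA replicate 2, unlike that of Cct6a. The genes most like the mean of the other 7 subunits were Utp14a (0.0098), a ribosome biogenesis factor, Cd2bp2 (0.014) and Zfp444 (0.014), whose log2 fold changes were −0.01, −0.03 and 0.00.

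Among the other chaperonins, 5 of 7 genes were high enough to test. Cct6b, the testis form of Cct6a, had at most 11 counts in any library, and Cct8l1 had none. None of the 5 was called by edgeR and 2 had an unadjusted p under 0.05, beside 6.78% and 22.2% of all genes tested. None was called by DESeq2 (1436 of 12384 genes called) or limma-voom (1043 of 15741). With 5 genes, nothing is read from the absence of calls. Bbs12, a chaperonin-like protein of ciliary assembly, had 2.59 ± 0.891 CPM after Ep300 siRNA and 4.0 ± 0.422 CPM after control siRNA (SD, n = 3; log2 fold change −0.61 ± 0.21, SE, edgeR adjusted p = 0.114). It passed with the replicate number as a block (edgeR adjusted p = 0.0399), without Ep300 siRNA replicate 3 (edgeR adjusted p = 0.0201) and with no filter on low counts (edgeR adjusted p = 0.00977). The mitochondrial chaperonin Hspd1 and its lid Hspe1 were at 0.15 and −0.06.

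The partners that deliver chains to CCT and the cofactors that act after it form short lists, so nothing is read from an absence of calls. Of 12 prefoldin and phosducin-like genes tested, of 13 listed, none was called by edgeR, 1 had an unadjusted p under 0.05, and none was called by DESeq2 or limma-voom. Over all genes tested, edgeR called 6.78%, and 22.2% had an unadjusted p under 0.05. DESeq2 called 1436 of 12384 genes and limma-voom 1043 of 15741. Pfdn4, a prefoldin subunit, had the smallest p, with means of 59.0 ± 2.51 CPM after Ep300 siRNA and 53.1 ± 3.69 CPM in the controls (SD, n = 3), a log2 difference of 0.15 ± 0.07 (SE, edgeR adjusted p = 0.214). Pdcl and Pdcl3, phosducin-like helpers of CCT, were at 0.01 and 0.04. Of 6 cofactors that take tubulin on after CCT, none was called by edgeR, 2 had an unadjusted p under 0.05, and none was called by DESeq2 or limma-voom. Tbce was the lowest of them (log2 fold change −0.25 ± 0.08, SE, edgeR adjusted p = 0.092).

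Of 34 genes of the Hsp70 and Hsp90 systems tested, of 36 listed, 1 fell and none rose, while 9 had an unadjusted p under 0.05, beside 6.78% and 22.2% of all genes tested. The gene that fell was Hspa4l, a nucleotide exchange factor for Hsp70, at 143, 140.4 and 141 CPM after Ep300 siRNA and 166, 172 and 172 CPM after control siRNA. Its groups did not overlap, and its level was 0.833 of control (log2 fold change −0.26 ± 0.05, SE, edgeR adjusted p = 0.0154). The call was lost on leaving out replicate 2 or 3 of either group (edgeR adjusted p from 0.0645 to 0.0766). The abundant cytosolic chaperones Hsp90ab1 and Hspa8 were at 0.25 ± 0.08 and 0.19 ± 0.07 (SE), and the Hsp40 protein Dnaja1 at 0.24 ± 0.07, with edgeR adjusted p from 0.0608 to 0.133. DESeq2 called these 3 (adjusted p from 0.00935 to 0.029) and, over the whole list, 5 higher and 2 lower. Over all 12384 genes with a DESeq2 adjusted p, it called 693 higher and 743 lower, more than edgeR did. Dnaja1 was also called by limma-voom (adjusted p = 0.0477), and with no filter on low counts edgeR called Hsp90ab1 (adjusted p = 0.00339) and Dnaja1 (adjusted p = 0.0168). Hsf1, the heat shock transcription factor, was at 0.22 ± 0.13 (SE), and the inducible genes Hspa1a and Hspa1b were at −0.12 ± 0.25 and −0.32 ± 0.12.

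Of 32 genes listed as encoding proteins that CCT folds, 4 rose, 3 fell and 25 were not called, beside 6.78% of all genes called. An unadjusted p under 0.05 was found for 11, beside 22.2% of all genes tested. The median log2 fold change was 0.09, beside −0.0038 for all genes tested. Tubb2b, Actr2, Actg1 and Ppp2r2a, a regulatory subunit of protein phosphatase 2A, rose. Actr3, Ccne1 and Plk1, a mitotic kinase, fell. On leaving out any Ep300 siRNA library or control siRNA replicate 2, 0 of the 32 were called higher and 1 or 2 lower. Without control siRNA replicate 1, 3 were called higher and 1 lower, and without control siRNA replicate 3, 1 and 1. The actin-related pair of the Arp2/3 complex, which nucleates branched actin, moved in opposite directions. Actr3 had 324, 322 and 340.3 CPM after Ep300 siRNA and 408, 425 and 416 CPM after control siRNA, a level 0.79 of control (log2 fold change −0.34 ± 0.06, SE, edgeR adjusted p = 0.00607). Actr2 had 374, 374 and 397 CPM after Ep300 siRNA and 332, 323 and 307 CPM after control siRNA, 1.19-fold higher (log2 fold change 0.25 ± 0.06, SE, edgeR adjusted p = 0.0334).

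Among the tubulins, Tubb2b rose 1.44-fold from a low level (9.14 ± 0.491 against 6.35 ± 0.936 CPM, SD, n = 3; edgeR adjusted p = 0.0281), and the other tubulin genes were not called. The main cytoplasmic beta-tubulin of the list, Tubb5, was at 0.09 ± 0.06 (SE), and the alpha-tubulin Tuba1b at 0.09 ± 0.07. Actg1, the gamma-actin, rose 1.19-fold (edgeR adjusted p = 0.0347), while Actb was at 0.11 ± 0.07 (SE). Ccne1, the G1/S cyclin E1, fell to 0.838 of control (edgeR adjusted p = 0.0462). Of these, Actr3 kept its call in every setting run at a threshold of 0.05, with an edgeR, DESeq2 or limma-voom adjusted p of at most 0.0418. Without Ep300 siRNA replicate 1, Actr2, Actg1, Tubb2b and Ccne1 each lost theirs (edgeR adjusted p from 0.0561 to 0.0912). Over all settings at this threshold, Actr2, Actg1 and Ccne1 were each not called in 6 and Tubb2b in 5 (edgeR or limma-voom adjusted p up to 0.157). Ppp2r2a was not called with library sizes alone (edgeR adjusted p = 0.0644) or on leaving out any library but control siRNA replicate 1 (up to 0.137). Plk1 was not called with RLE or upper-quartile scaling (edgeR adjusted p = 0.0504 and 0.0509) or on leaving out any library but Ep300 siRNA replicate 3 (up to 0.161). Actin and tubulin genes have near-identical copies between which reads can be split.

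**Figure D4:**
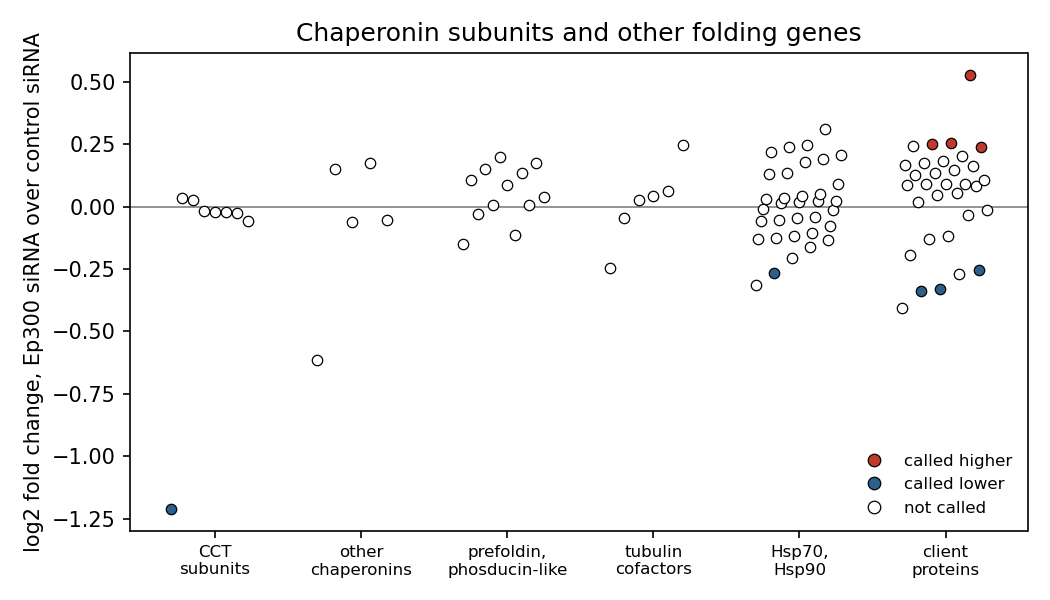
Log2 fold change of each gene tested, Ep300 siRNA over control siRNA, for the 8 chaperonin subunits and 5 lists of other folding genes; filled points were called by edgeR (adjusted p under 0.05), red higher and blue lower. Cct6a is the lowest point at −1.21, and the 89 genes of the other lists lie between −0.61 and 0.53.

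Over the 5 lists, 8 of 89 genes tested were called, 4 higher and 4 lower, beside 6.78% of all genes tested. The number was not stable to the loss of a library: it was 2 without Ep300 siRNA replicate 1, 1 without Ep300 siRNA replicate 2, 4 without Ep300 siRNA replicate 3 and 2 without control siRNA replicate 2 or 3. The changes of listed genes that were called stayed below 1.5-fold in either direction. Cct6a had the largest fold change of the 97 genes of the complex and the lists, but its fall chose the complex, so nothing is read from that rank.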

How the data were processed

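The authors deposited unnormalized counts for each gene symbol, with 1 column for each of 6 libraries, matched to samples by name. The submitters' processing notes name GRCm38 and the tools edgeR 3.12.1, featureCounts, STAR 2.5.3a and fastp 0.23.4. Annotation, strand and multimapping settings: not given in the sources used here. From 79.8% to 80.9% of counts of 1 to 4 were even in each library, so a fit on halved counts was among the alternatives.

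Genes were tested in edgeR 4.0.16 (R 4.3.3): TMM scaling after filterByExpr on the 2 groups, quasi-likelihood F-test with no covariate, two-sided, Benjamini-Hochberg over 15741 genes, threshold 0.05. Standard errors are the absolute log2 fold change over the root of F. Log2 CPM for ratios and profiles used a prior count of 2. Standard errors and p-values rest on 3 libraries a group.

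The 8 members, the gene lists and the naming rule were chosen with earlier results of these data known. Named genes are the 8 members, Ep300, Cct6b, up to 2 called genes in each direction per list by smallest p (or the smallest p where none was called), the 5 genes nearest to Cct6a and 3 nearest to the mean of the others, and the neighbours of Cct6a. Other list genes are given as values and were chosen after their values were seen. The macrophage and other-cell marker lists served as a check of the label. Lengths, positions and transcripts were from GENCODE M21 and promoters from RefSeq. No protein sequences were used here. Alternatives were other scalings and filters, DESeq2 1.42.0, limma-voom (limma 3.58.1), a replicate block, each library left out and a threshold of 0.01. Python 3.11.15, numpy 2.4.6, pandas 2.3.3, numba 0.67.0 and matplotlib 3.10.9 were used for sequences and figures.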

Additional observations from a re-analysis of the deposited data

How the results depend on the processing

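Over 16 alternatives Cct6a, whose fall chose the complex, had log2 fold changes of −1.29 to −1.12, and none of the other 7 subunits was called in any. The difference in the log2 ratio of Cct6a to the other 7 ran from −1.26 to −1.11 with a library left out. Scaling and filters cannot move it. The median of the 7 ran from −0.0424 to 0.0184 with a library left out, the latter without Ep300 siRNA replicate 2. Genes called numbered 1068, between 490 and 1054 with a library left out, 1721 with no filter on low counts and 369 at a threshold of 0.01. With library sizes alone 316 were higher and 788 lower, against 435 and 633. DESeq2 called 1436 of 12384 genes. List genes called numbered 8, between 1 and 6 with a library left out, 14 with no filter, 14 by DESeq2 and 1 at a threshold of 0.01.

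Signs that changed belonged to values near 0 that were never called. With library sizes alone Cct2 was at −0.0017 and Cct5 at −0.0071. With a library left out, Tcp1 ran from −0.0424 to 0.0184, Cct3 from −0.0463 to 0.018, Cct4 from −0.049 to 0.0217, Utp14a from −0.0294 to 0.0252, Cd2bp2 from −0.0457 to 0.00974 and Zfp444 from −0.0288 to 0.0355. These highest values came without Ep300 siRNA replicate 2. Cct8 ran from −0.0439 to 0.00896, the latter without control siRNA replicate 1, where Cct3 (0.010), Utp14a (0.0075) and Zfp444 (0.021) were also above 0. Zfp444 was also at 0.0039 with RLE scaling and 0.0038 by DESeq2. The cause of these changes was not tested.

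Whether replicate numbers pair the samples is not stated. Same-numbered libraries had deviations correlated at 0.087, 0.020 and −0.047 across genes, and differently numbered libraries at −0.10 to 0.088. With the replicate block 1357 genes and 9 list genes were called, Cct6a was at −1.22 and the median of the other 7 at −0.02.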
